A study of Homo sapiens with 14 samples.

Results

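RUNX1, RUNX1T1 and the genes of core binding factor were followed across the RNA-seq libraries of Kasumi-1, an acute myeloid leukemia line of myeloblast type that carries the 8;21 translocation. The 7 genes were chosen by name as the partners of the fusion and their paralogs: RUNX1, RUNX1T1, CBFB, CBFA2T2, CBFA2T3, RUNX2 and RUNX3. All 7 had a row among the 16405 genes of the knockdown table and among the 12325 genes of the compound table, and all 7 passed the filter on low counts in both. In the knockdown experiment, cells were infected with a lentivirus for 48 h and kept in puromycin for 48 h, with an shRNA against RBPMS (shRBPMS, n = 3) or a scrambled shRNA (shCtrl, n = 3). RBPMS encodes an RNA-binding protein. In the compound experiment, cells received RB98# (n = 2), whose code name is all that the labels give, or DMSO (n = 2), at a dose and a time that the labels do not give. Every library comes from this 1 cell line with its translocation, and no label tells if a group's replicates were grown as separate cultures, so the spread behind the p-values may be technical.

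Core binding factor is a pair of proteins. The alpha subunit is RUNX1, RUNX2 or RUNX3, each of which binds DNA through its Runt domain, and the beta subunit, CBFB, does not touch DNA itself but strengthens the binding of its partner. RUNX1 is needed for the formation of blood stem cells and for the maturation of several blood lineages. In the 8;21 translocation the Runt domain of RUNX1 is joined to nearly all of RUNX1T1 (also called ETO), and the fusion protein is the driver for which this type of leukemia is known. RUNX1T1, CBFA2T2 (MTGR1) and CBFA2T3 (MTG16, or ETO2) form the ETO family of corepressors, which bring the nuclear receptor corepressor NCOR1 and histone deacetylases to DNA. The counts used here are sums per gene. Reads of the fusion transcript fall partly on the RUNX1 row and partly on the RUNX1T1 row, and the counts of normal RUNX1 cannot be told apart from those of the fusion.

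The alpha subunits resemble each other most in the Runt domain, and 120 coding bases at its start show how far their reads can be told apart. Each stretch is written 5′ to 3′ on the coding strand, read from an annotated GENCODE transcript (GRCh38), and capitals mark the bases of RUNX2 and RUNX3 that differ from RUNX1.
RUNX1: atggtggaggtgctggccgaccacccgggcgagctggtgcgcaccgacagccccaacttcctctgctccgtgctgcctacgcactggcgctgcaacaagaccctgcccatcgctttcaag
RUNX2: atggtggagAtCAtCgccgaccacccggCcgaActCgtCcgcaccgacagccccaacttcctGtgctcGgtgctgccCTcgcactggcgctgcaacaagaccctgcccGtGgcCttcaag
RUNX3: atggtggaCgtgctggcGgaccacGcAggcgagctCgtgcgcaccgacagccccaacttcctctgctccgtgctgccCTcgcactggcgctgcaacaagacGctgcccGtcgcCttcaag
The stretch covers coding bases 232 to 351 of RUNX1, 304 to 423 of RUNX2 and 205 to 324 of RUNX3. RUNX2 was identical to RUNX1 at 105 of the 120 bases (87.5%), with a longest identical run of 29 bases. RUNX3 was identical at 110 bases (91.7%), with a longest run of 41 bases. Over the whole annotated transcripts, no stretch of 50 bases was shared between any of the 21 pairs of the 7 genes, so a read of that length without mismatches belongs to 1 of them.

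The fusion gene keeps the upstream end of RUNX1, so its transcripts start at RUNX1 promoters. The window shown is the 250 bases before the start that the RefSeq promoter table (GRCh38.p14) lists for RUNX1, chr21:34888700-34888949 on the minus strand, set against that of CBFA2T3, chr16:88941351-88941600 on the minus strand, the ETO family gene that moved the other way in the results that follow. Both are written 5′ to 3′ in the direction of transcription, and capitals mark matches of GGGCGG, the GC box, on either strand.
RUNX1: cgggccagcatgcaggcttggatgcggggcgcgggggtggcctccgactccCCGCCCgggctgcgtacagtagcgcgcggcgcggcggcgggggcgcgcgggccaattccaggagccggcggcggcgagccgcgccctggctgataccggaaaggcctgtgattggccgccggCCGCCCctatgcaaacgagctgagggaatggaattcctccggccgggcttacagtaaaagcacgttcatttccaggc
CBFA2T3: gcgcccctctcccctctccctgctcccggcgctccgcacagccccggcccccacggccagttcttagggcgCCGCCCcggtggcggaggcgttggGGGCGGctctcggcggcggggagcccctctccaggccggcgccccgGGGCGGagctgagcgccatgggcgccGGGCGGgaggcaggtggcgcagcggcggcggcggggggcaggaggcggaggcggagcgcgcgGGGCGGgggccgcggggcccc
The RUNX1 window held 2 matches of GGGCGG and the CBFA2T3 window held 5. Neither window held the RUNX binding motif TGTGGT, the AP-1 motif TGANTCA or the CRE motif TGACGTCA on either strand. Both windows lie inside their annotated genes, whose upstream ends are at 36004667 for RUNX1 and 88977204 for CBFA2T3. No window at those upstream ends was searched, so this covers 1 start of each gene. Among 35116 promoter windows of the same length, 42.6% held GGGCGG, 11.0% TGTGGT, 6.57% TGANTCA and 1.65% TGACGTCA. Windows of 5 of the 7 genes were searched. Of those not printed, the upstream one of RUNX3 held TGTGGT at 131 and 123 bases before the start, and the upstream one of RUNX2 held it at 191 and 87 bases before and TGANTCA at 243 bases before. A match is a run of letters and was not tested as a binding site.

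The 7 genes are annotated as protein-coding on the GRCh38 build (GENCODE). RUNX1 (ENSG00000159216) spans 34787801 to 36004667 of chromosome 21, minus strand. RUNX1T1 (ENSG00000079102) spans 91954967 to 92103286 of chromosome 8, minus strand. Chromosome 16 holds both CBFB (ENSG00000067955; 67029116 to 67101058, plus strand) and CBFA2T3 (ENSG00000129993; 88874858 to 88977204, minus strand). CBFA2T2 (ENSG00000078699) spans 33490075 to 33650036 of chromosome 20, plus strand. RUNX2 (ENSG00000124813) spans 45328157 to 45664349 of chromosome 6, plus strand, and RUNX3 (ENSG00000020633) spans 24899511 to 24965121 of chromosome 1, minus strand. The exons of RUNX1T1 share 66 bases, 0.488% of its exonic length, with the antisense gene AF181450.1, and those of CBFA2T3 share 501 bases, 8.39%, with the antisense gene AC092384.2. The summed count of AC092384.2 in the knockdown table was 83. Because the sources used here do not state whether counting used strand, reads in that overlap cannot be assigned to CBFA2T3 with certainty.

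Knockdown libraries held 24.03 to 34.4 M counts (M, 1e+06) each, and compound libraries 13.9 to 15.3 M. The knockdown labels place replicate 1 of each group in one set (label set 1) and replicates 2 and 3 in another (label set 2), without saying what a set is. Genes of the mitochondrial genome held 13.2% of all counts in shRBPMS replicate 1 and 15.2% in shCtrl replicate 1, against 6.20% to 6.95% in the libraries of label set 2. Within a group, replicates 2 and 3 were close to each other and far from replicate 1: the chi-square per degree of freedom over genes was 3.04 between shRBPMS replicates 2 and 3, against 134 and 138 to replicate 1, and 3.01 between shCtrl replicates 2 and 3, against 196 and 216. The level of RBPMS, the knockdown target, was 2.53, 3.34 and 3.08 CPM in shRBPMS replicates 1 to 3, against 20.4, 7.24 and 7.39 CPM in shCtrl replicates 1 to 3, where CPM is counts per 1e+06 counts, scaled by TMM factors. All 7 of the myeloblast markers CD34, KIT, CD33, ANPEP, MPO, AZU1 and CD38 had a row in both tables. A row can mean a low level, and CD38 had only 13 to 45 counts a library. None of the 5 erythroid and none of the 5 stromal markers had a row. Of the other lists, 2 of 5 T cell, 2 of 4 B cell, 2 of 5 platelet and 1 of 5 monocyte markers had a row in the knockdown table, and 1, 2, 1 and 1 in the compound table. In CPM of library totals, the T cell markers summed to 1.98 to 2.82 in shRBPMS and 8.93 to 10.1 in shCtrl libraries, most of it CD3D, and to 2.76 to 2.96 with RB98# and 2.87 to 2.96 with DMSO. CD3E was at 0.108 to 0.198 CPM in shRBPMS and 0.844 to 1.75 CPM in shCtrl libraries. The B cell markers summed to 3.29 to 5.71 in shRBPMS, 4.70 to 7.83 in shCtrl, 6.14 to 9.22 in RB98# and 10.6 to 11.5 CPM in DMSO libraries. The platelet markers summed to 2.58 to 3.17 in shRBPMS, 4.95 to 7.19 in shCtrl, 2.30 to 2.89 in RB98# and 3.67 to 5.08 CPM in DMSO libraries. The myeloblast markers, most of it MPO, summed to 16291 to 16922 CPM in shRBPMS and 12637 to 18923.5 CPM in shCtrl libraries. Their sums were 15816 to 16828 CPM with RB98# and 15364 to 15400 CPM with DMSO. Among the myeloblast markers, CD33 was at 45.1 to 59.3 CPM in shRBPMS and 11.5 to 17.8 CPM in shCtrl libraries, and ANPEP at 483 to 899.9 CPM in shRBPMS and 171 to 191 CPM in shCtrl libraries. CD38 was at 0.479 to 1.07 CPM in shRBPMS and 1.06 to 1.87 CPM in shCtrl libraries. MPO and AZU1 were higher in shRBPMS within label set 1 and lower within label set 2. CD34 was lower in shRBPMS within label set 1 and higher within label set 2. KIT was lower in shRBPMS within label set 1 and overlapped within label set 2. With RB98#, CD34 was at 149 and 156 CPM, against 216 and 207 CPM with DMSO. KIT was at 568 and 598 CPM with RB98#, against 819 and 835 CPM with DMSO. CD33 was lower as well, at 11.5 and 14.9 CPM with RB98# and 25.7 and 24.9 CPM with DMSO, as was CD38 at its low level. The other myeloblast markers did not fall. MPO was at 14230 and 15129 CPM with RB98# and 13486 and 13468 CPM with DMSO. AZU1 was at 595 and 633 CPM with RB98# and 559 and 549 CPM with DMSO, and ANPEP overlapped. The part of these marker levels in the results was not tested.

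Per length, RUNX1 and CBFB were the most abundant of the 7 genes in every group, followed by RUNX1T1 and RUNX2. Levels between genes are compared here only as FPKM, counts per kilobase of gene length and per 1e+06 counts. For RB98# and DMSO these are the authors' deposited values, whereas for shRBPMS and shCtrl, whose table holds none, they were computed here from the counts, the library totals and the gene lengths that the deposited values imply. The implied lengths are 15.60 kb for RUNX1, 13.56 kb for RUNX1T1 and 4.66 kb for CBFB. All annotated exons of these genes together span 15.57, 13.5 and 4.13 kb. Single transcripts, and the fusion, can cover less, so the order of genes with close levels depends on this choice of length. Levels are ranked within a group and were not tested across the 2 tables. In shRBPMS cells CBFB averaged 31.8 ± 1.11 FPKM and RUNX1 31.2 ± 3.42 FPKM (SD, n = 3), and their libraries overlapped. In shCtrl cells RUNX1 averaged 37.9 ± 9.63 FPKM and CBFB 37.8 ± 1.09 FPKM (SD, n = 3), again with overlap. In the compound experiment RUNX1 stood above CBFB without overlap, at 28.6 ± 0.772 against 21.3 ± 1.20 FPKM with RB98# and at 26.2 ± 0.422 against 24.6 ± 1.01 FPKM with DMSO (SD, n = 2 each). RUNX1T1 ranked next in all 4 groups, at 13.1 ± 3.58 FPKM in shRBPMS and 21.5 ± 10.5 FPKM in shCtrl cells, and at 14.4 ± 0.185 FPKM with RB98# and 11.9 ± 0.173 FPKM with DMSO. RUNX2, an alpha subunit best known from bone, came after RUNX1T1 in every group, at group means of 5.70 to 8.54 FPKM. RUNX3 and CBFA2T2 followed, at 4.28 to 5.32 and 3.82 to 4.40 FPKM, and their libraries overlapped in shCtrl and RB98# cells. CBFA2T3 was the lowest of the 7 in every group, at 2.89 ± 0.998 FPKM in shRBPMS and 1.72 ± 0.424 FPKM in shCtrl cells, and at 1.30 ± 0.190 FPKM with RB98# and 2.42 ± 0.289 FPKM with DMSO. These are values of bulk RNA, in which fewer cells that express a gene and less RNA per cell cannot be told apart.

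The shRBPMS cells were compared with shCtrl cells to see what the suppression of RBPMS changes. RUNX1T1 and RUNX1, the partners in the fusion, were lower in shRBPMS than in shCtrl libraries of the same label set, as was CBFB, while CBFA2T3 was higher. For RUNX1T1, RUNX1 and CBFA2T3 the gap between the label sets was about as large as these differences or larger, for CBFB it was smaller, and the calls depend on whether the fit takes that gap into account. In the edgeR quasi-likelihood fit of group alone, none of the 7 genes passed an adjusted p of 0.05, where 1.97% of all genes tested did. RBPMS, the knockdown target, did not pass in that fit either (log2 change -1.96, adjusted p = 0.0846). At an unadjusted p under 0.05 that fit held 1 of the 7 (CBFB), limma-voom held 1 and DESeq2 held 2. Of all 16215 genes tested, 2733, 2719 and 2871 were under 0.05 in these fits, in that order. Neither limma-voom nor DESeq2 called any of the 7 after adjustment. In the edgeR fit that adds the replicate number as a blocking factor (the blocked fit), 3 of the 7 fell and 1 rose. Across all genes the blocked fit called 28.1%, 14.8% lower and 13.3% higher, and RBPMS passed in it (log2 change -1.79, adjusted p = 0.0106).

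**Figure D1:**
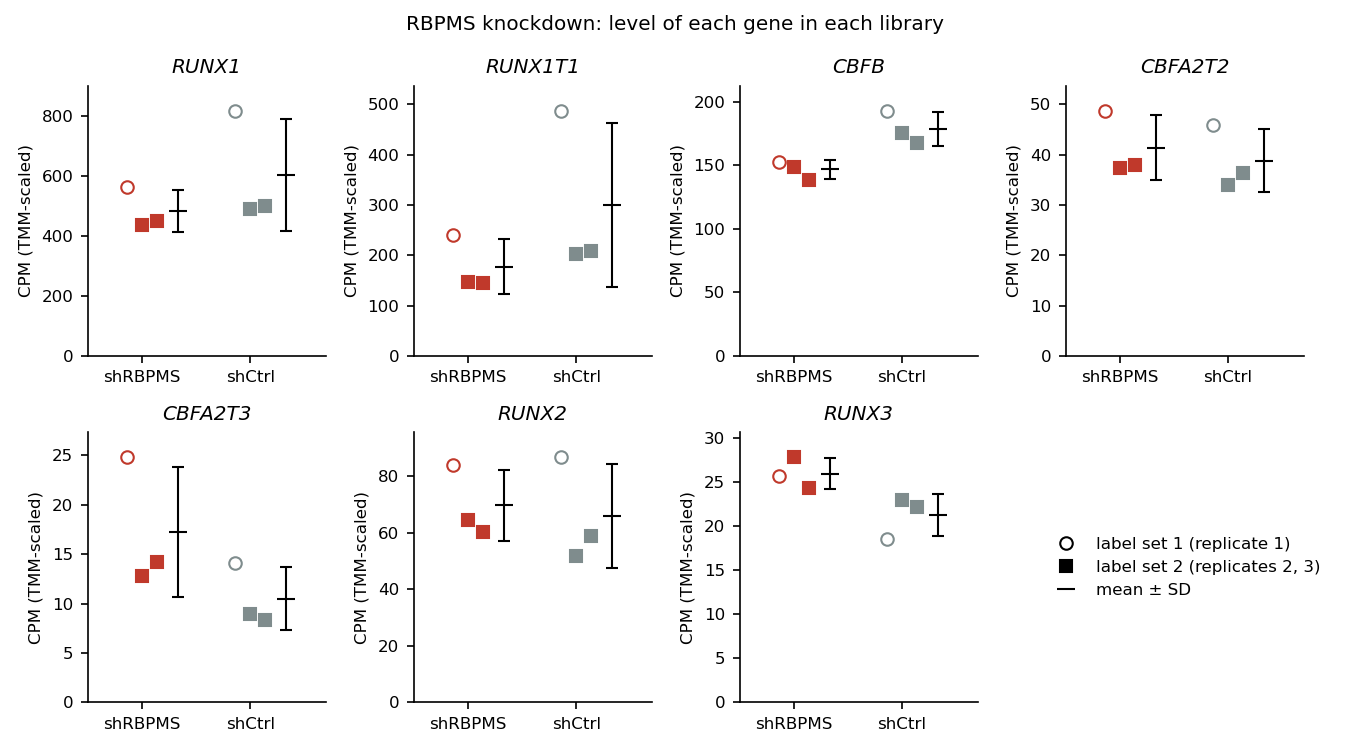
Level of each gene in CPM (counts per 1e+06 counts, TMM-scaled, linear axis from 0) in 3 shRBPMS and 3 shCtrl libraries, with open circles for label set 1, filled squares for label set 2 and mean ± SD at the right of each group. The libraries of both groups are apart for CBFB and RUNX3, and replicate 1 stands above replicates 2 and 3 of its group for every gene but RUNX3.

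RUNX1, the alpha subunit whose Runt domain is in the fusion, was at 563, 435 and 451 CPM in shRBPMS replicates 1 to 3, against 818, 490.3 and 499.7 CPM in shCtrl replicates 1 to 3. The groups overlapped, because shRBPMS replicate 1 lay above shCtrl replicates 2 and 3, but each shRBPMS library lay below every shCtrl library of its own label set. The mean was 483 ± 69.8 CPM in shRBPMS and 603 ± 187 CPM in shCtrl cells (SD, n = 3 each). The log2 change was -0.32 ± 0.24 (SE) with group alone, at an adjusted p of 0.591, and -0.29 ± 0.088 (SE) with the block, at an adjusted p of 0.0496. The shRBPMS to shCtrl log2 ratio was -0.54 within label set 1 and -0.16 within label set 2. The blocked call of RUNX1 is at the threshold: it was lost without any 1 of the 4 libraries of label set 2 (adjusted p up to 0.0966) and with library totals in place of TMM factors (-0.26, adjusted p = 0.0559). Without replicate 1 of either group the blocked log2 change was -0.16.

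RUNX1T1, the corepressor partner in the fusion, was at 241, 147 and 144 CPM in shRBPMS replicates 1 to 3, against 488, 203 and 209 CPM in shCtrl replicates 1 to 3. The 2 libraries of label set 1 were the highest of their groups, and shRBPMS replicate 1 lay above shCtrl replicates 2 and 3, so the groups overlapped. The mean was 177 ± 54.9 CPM in shRBPMS and 300.3 ± 163 CPM in shCtrl cells (SD, n = 3 each). The log2 change was -0.76 ± 0.39 (SE) with group alone, at an adjusted p of 0.404, and -0.68 ± 0.11 (SE) with the block, at an adjusted p of 0.00535. The log2 ratio was -1.02 within label set 1 and -0.50 within label set 2. The blocked call held without each library in turn, with log2 changes of -0.80 to -0.50. With the block, a library left out takes the comparison within its same-numbered pair with it. Leaving out either library of a pair is thus nearly the same check, at -0.503 without shCtrl replicate 1 and -0.502 without shRBPMS replicate 1. Those 2 values rest on replicates 2 and 3, which were close to each other. The authors' deposited table gives a log2 change of -0.62 with an adjusted p of 0.0104 for RUNX1T1, and of -0.24 with an adjusted p of 0.510 for RUNX1.

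CBFB, the beta subunit shared by all alpha subunits, was at 153, 149 and 138 CPM in shRBPMS replicates 1 to 3, against 193, 175 and 167 CPM in shCtrl replicates 1 to 3. All 3 shRBPMS libraries were lower than all 3 shCtrl libraries, and replicate 1 stood apart less than for RUNX1 or RUNX1T1. Of all genes tested, 25.9% had groups that did not overlap. The mean was 147 ± 7.46 CPM in shRBPMS and 178 ± 13.1 CPM in shCtrl cells (SD, n = 3 each). The log2 change was -0.28 ± 0.12 (SE) with group alone, at an adjusted p of 0.282, and -0.28 ± 0.058 (SE) with the block, at an adjusted p of 0.0124. The log2 ratio was -0.34 within label set 1 and -0.25 within label set 2. Label set 1 over label set 2 gave CBFB a log2 ratio of 0.09 in shRBPMS and 0.17 in shCtrl cells. The blocked call of CBFB was lost without any 1 of the 4 libraries of label set 2 (adjusted p up to 0.0922).

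CBFA2T3, a corepressor of the ETO family that works in blood progenitors, was the member that moved up. It was at 24.8, 12.8 and 14.2 CPM in shRBPMS replicates 1 to 3, against 14.1, 8.96 and 8.36 CPM in shCtrl replicates 1 to 3. Within each label set the shRBPMS libraries were higher, and the groups overlapped only in that shRBPMS replicate 2 lay below shCtrl replicate 1. The mean was 17.3 ± 6.59 CPM in shRBPMS and 10.5 ± 3.17 CPM in shCtrl cells (SD, n = 3 each). The log2 change was 0.72 ± 0.33 (SE) with group alone, at an adjusted p of 0.334, and 0.70 ± 0.10 (SE) with the block, at an adjusted p of 0.00417. The log2 ratio was 0.81 within label set 1 and 0.64 within label set 2, and the blocked call held without each library in turn (0.64 to 0.79). Here too, leaving out either library of a same-numbered pair is nearly the same check. The counts behind these values are 364 to 609 in shRBPMS and 250 to 317 in shCtrl libraries, against 4028 counts or more for RUNX1T1. In the authors' deposited table CBFA2T3 has a log2 change of 0.68 with an adjusted p of 0.0105, and 11.3% of all genes pass 0.05 there.

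The other 3 genes did not pass 0.05 in either fit. RUNX3, an alpha subunit known from T cells, was at 25.6, 27.8 and 24.3 CPM in shRBPMS replicates 1 to 3, against 18.5, 22.9 and 22.2 CPM in shCtrl replicates 1 to 3. The groups did not overlap, and the blocked log2 change was 0.29 (SE 0.091, adjusted p = 0.0536). This value of RUNX3 passed with the label set as a covariate in place of the replicate number (0.29, adjusted p = 0.0299) and, with the block kept, under library totals (0.32, adjusted p = 0.0442). These fits called 5810 and 4569 genes in all, in that order. RUNX2 was at 83.9, 64.6 and 60.4 CPM in shRBPMS, against 86.7, 51.8 and 58.9 CPM in shCtrl replicates 1 to 3, with overlap and a blocked log2 change of 0.10 (adjusted p = 0.418). Within label set 1 its log2 ratio was -0.05 and within label set 2 it was 0.17, which passed when label set 2 was fitted alone (adjusted p = 0.01999). That fit, of the close replicates 2 and 3 alone, called 6830 genes in all. CBFA2T2, the ETO family member found in most tissues, was at 48.8, 37.4 and 38.0 CPM in shRBPMS, against 46.0, 34.1 and 36.4 CPM in shCtrl replicates 1 to 3. The groups overlapped, and its blocked log2 change was 0.09 (adjusted p = 0.339).

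The label sets differed by as much as the knockdown for some of these genes. For RUNX1T1, label set 1 over label set 2 gave a log2 ratio of 0.72 in shRBPMS and 1.24 in shCtrl cells. For RUNX1 the same ratio was 0.35 in shRBPMS and 0.73 in shCtrl cells, and for CBFA2T3 it was 0.88 in shRBPMS and 0.71 in shCtrl cells. RUNX2 and CBFA2T2, not called in either fit, had 0.43 and 0.37 in shRBPMS and 0.65 and 0.38 in shCtrl cells. RUNX3 had -0.02 in shRBPMS and -0.28 in shCtrl cells. The share of genes of the mitochondrial genome and the level of RBPMS in shCtrl cells moved with the label set as well, and their part in these values was not tested. With replicates 2 and 3 summed into 1 sample of each group and the label set as a covariate, 2 of the 7 genes passed, against 16.4% of all genes, RUNX1T1 (log2 change -0.76, adjusted p = 0.00634) and CBFA2T3 (0.73, adjusted p = 0.00783).

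RB98# was tested against DMSO to find which genes change under the compound. RUNX1T1, RUNX1 and CBFA2T2 rose, by less than 1 on the log2 scale, and CBFA2T3 fell. CBFB, RUNX2 and RUNX3 did not pass 0.05. That makes 4 of the 7 genes past an adjusted p of 0.05 in edgeR, 3 higher and 1 lower, where 37.8% of all genes tested passed, 20.5% higher and 17.3% lower. With library totals in place of TMM factors the median log2 change of all genes moved by -0.10 and 34.03% of the genes called were higher, against 54.3% with TMM factors, so the smaller changes of these genes depend on the scaling.

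**Figure D2:**
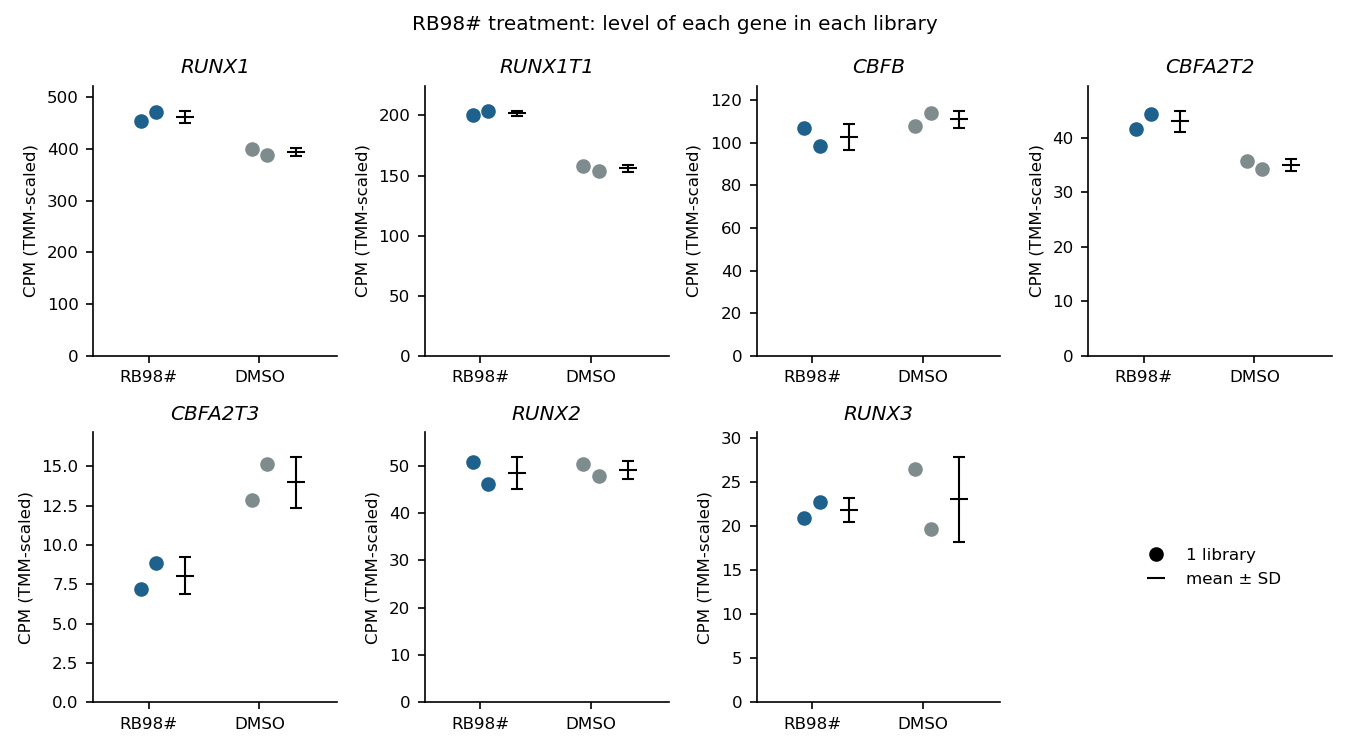
Level of each gene in CPM (counts per 1e+06 counts, TMM-scaled, linear axis from 0) in 2 RB98# and 2 DMSO libraries, 1 point a library, with mean ± SD at the right of each group. The groups are apart for RUNX1, RUNX1T1, CBFB, CBFA2T2 and CBFA2T3 and overlap for RUNX2 and RUNX3.

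RUNX1T1 was at 200.3 and 203 CPM with RB98#, against 158 and 154 CPM with DMSO. Both RB98# libraries lay above both DMSO libraries, as far apart as 4 libraries can show, which held for 68.3% of all genes in one direction or the other. The mean was 202 ± 2.25 CPM with RB98# and 156 ± 2.84 CPM with DMSO (SD, n = 2 each), a log2 change of 0.37 (SE 0.061, edgeR adjusted p = 3.5e-05). RUNX1 was at 454 and 470.4 CPM with RB98#, against 399.8 and 389 CPM with DMSO, again without overlap. Its log2 change was 0.23 (SE 0.055, adjusted p = 0.00197), and with library totals it was 0.13 and no longer passed (adjusted p = 0.0654). The call of RUNX1 was also lost without DMSO replicate 1 (adjusted p = 0.0657) or DMSO replicate 2 (adjusted p = 0.135). The authors' deposited table gives log2 changes of 0.37 for RUNX1T1 (adjusted p = 5.95e-06) and 0.23 for RUNX1 (adjusted p = 0.000516), where 22.2% of all genes pass 0.05.

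CBFA2T3 had the largest change of the 7 genes with RB98#. It was at 7.24 and 8.89 CPM with RB98#, against 12.8 and 15.1 CPM with DMSO, without overlap. The log2 change was -0.80 (SE 0.16, adjusted p = 0.000334), from 106 and 119 counts with RB98#, and it passed under every setting run, with log2 changes of -0.95 to -0.67 when 1 library was left out. CBFA2T2 was at 41.6 and 44.4 CPM with RB98#, against 35.8 and 34.2 CPM with DMSO. Its libraries did not overlap, and its log2 change was 0.30 (SE 0.093, adjusted p = 0.0132). The call of CBFA2T2 was lost with DESeq2 (adjusted p = 0.0623), with library totals (log2 change 0.20, adjusted p = 0.0929), without DMSO replicate 1 (adjusted p = 0.0803) and without DMSO replicate 2 (adjusted p = 0.173).

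CBFB was at 107 and 98.4 CPM with RB98#, against 108 and 114 CPM with DMSO. Its libraries did not overlap, but the log2 change of -0.11 did not pass (SE 0.070, adjusted p = 0.2202). It passed with library totals (-0.21, adjusted p = 0.0185) and without RB98# replicate 1 (-0.18, adjusted p = 0.0237). RUNX2 was at 50.9 and 46.1 CPM with RB98#, against 50.5 and 47.7 CPM with DMSO, and its log2 change was -0.02 (adjusted p = 0.900, SE 0.088). RUNX3 was at 20.9 and 22.8 CPM with RB98#, against 26.4 and 19.6 CPM with DMSO, and its log2 change was -0.07 (adjusted p = 0.686, SE 0.13). For RUNX2 and for RUNX3 the groups overlapped. RBPMS itself had a log2 change of 0.11 with RB98# (adjusted p = 0.678).

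**Figure D3:**
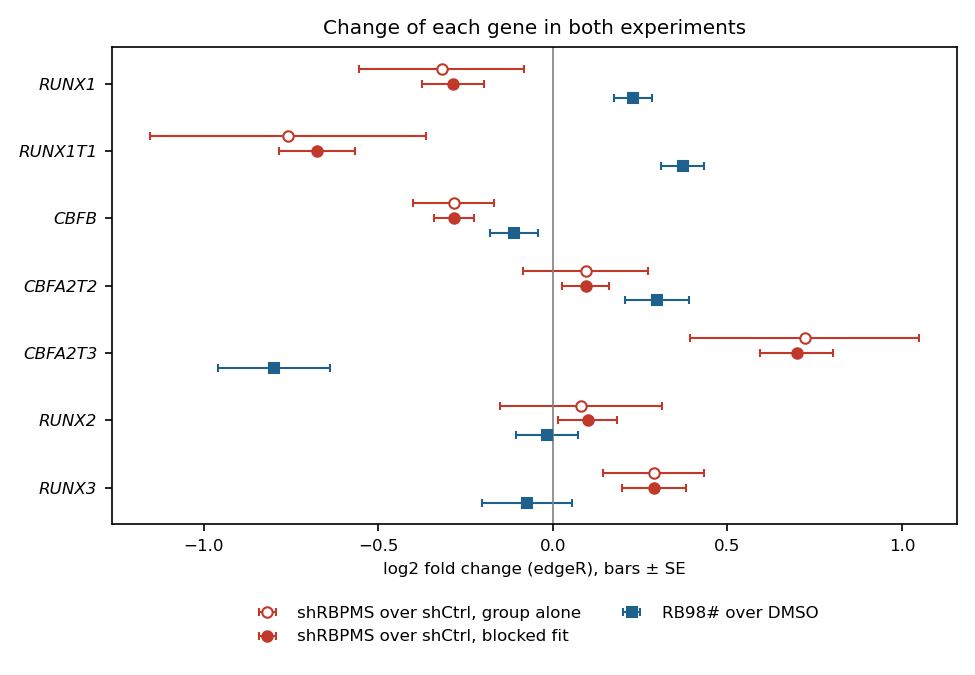
Log2 fold change of each gene (edgeR, bars ± SE) for shRBPMS over shCtrl in the fit of group alone (open circles) and the blocked fit (filled circles), and for RB98# over DMSO (squares). RUNX1 and RUNX1T1 lie below 0 after the knockdown and above 0 with RB98#, and CBFA2T3 lies on the other side of 0 in each.

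Set side by side, RUNX1, RUNX1T1 and CBFA2T3 had changes of opposite sign in the 2 experiments, which have separate controls. So did RUNX2 and RUNX3, whose changes did not pass 0.05 in the fit of group alone or the blocked fit. The difference of both effects, RB98# over DMSO minus shRBPMS over shCtrl, was tested in 1 fit of all 10 libraries. For RUNX1T1 it was 1.12 on the log2 scale without the block (SE 0.54, adjusted p = 0.253) and 1.03 with it (adjusted p = 0.00166). For RUNX1 it was 0.53 without the block (SE 0.32, adjusted p = 0.353) and 0.50 with it (adjusted p = 0.0185). For CBFA2T3 it was -1.53 without the block (SE 0.46, adjusted p = 0.0802) and -1.51 with it (adjusted p = 0.000352). Without the block none of the 7 passed in edgeR, where 8.15% of all genes did. At an unadjusted p under 0.05 that fit held 1 of the 7 (CBFA2T3), against 2869 of all 12126 genes. With the block 3 of the 7 passed, 2 higher and 1 lower, against 37.1% of all genes, 18.9% higher and 18.2% lower. No other tool was run for this contrast. Library totals shifted the difference of all genes by a median of -0.11 on the log2 scale, and 46.03% of the genes then called were higher, against 58.8% with TMM factors without the block. The effects of CBFB, CBFA2T2, RUNX2 and RUNX3 differed by 0.16, 0.19, -0.11 and -0.38, none of which passed in either fit.

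The ratio of RUNX1T1 to RUNX1 within a library needs no scaling between libraries. It was 0.427, 0.339 and 0.319 counts of RUNX1T1 per count of RUNX1 in shRBPMS replicates 1 to 3, against 0.596, 0.415 and 0.419 in shCtrl replicates 1 to 3. The ratio was lower in shRBPMS within each label set, and the groups overlapped through shRBPMS replicate 1. The mean log2 ratio differed by -0.39 between shRBPMS (-1.48 ± 0.22) and shCtrl cells (-1.09 ± 0.30; SD, n = 3 each; two-sided exact permutation p = 0.300, smallest possible 0.1). Paired by replicate number, every pair had the lower ratio in shRBPMS, and the exact p was 0.250, the smallest that 3 pairs allow. With RB98# the ratio was 0.441 and 0.433, against 0.395 and 0.396 with DMSO, without overlap. The log2 difference was 0.14, with an exact permutation p of 0.333, the smallest that 2 libraries against 2 allow.

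**Figure D4:**
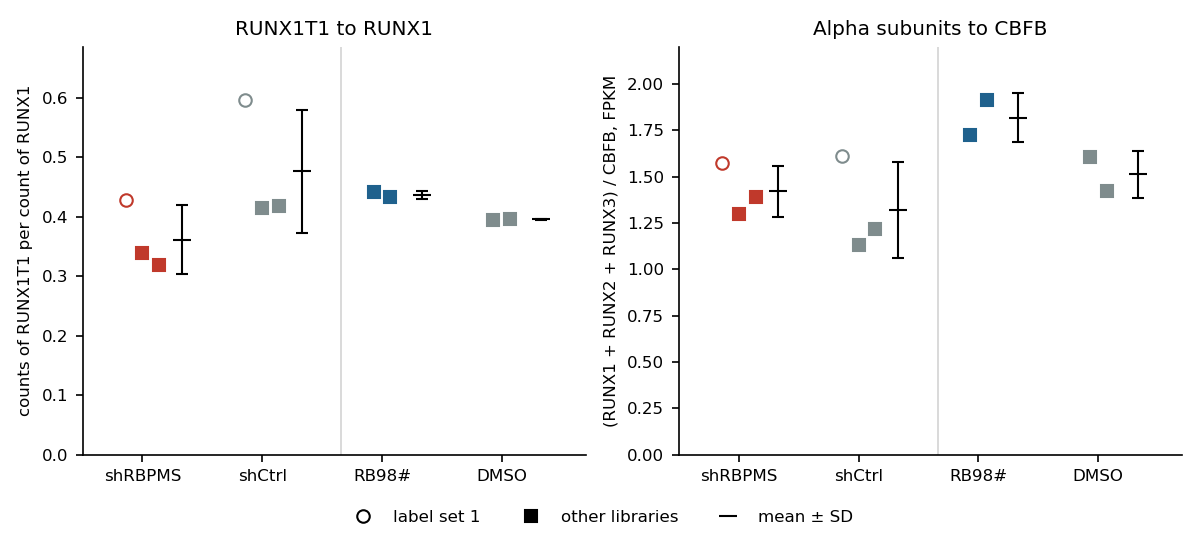
Left, counts of RUNX1T1 per count of RUNX1 in each of the 10 libraries; right, summed FPKM of RUNX1, RUNX2 and RUNX3 over the FPKM of CBFB (computed here for shRBPMS and shCtrl, deposited for RB98# and DMSO); both on linear axes from 0, with open circles for label set 1, filled squares for all other libraries and mean ± SD beside each group. The RUNX1T1 to RUNX1 ratio spans 0.319 to 0.427 in shRBPMS and 0.415 to 0.596 in shCtrl libraries, and is above 0.43 in both RB98# and below 0.40 in both DMSO libraries.

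Among the alpha subunits, RUNX1 made up 70.1%, 67.4% and 70.2% of the summed FPKM of RUNX1, RUNX2 and RUNX3 in shRBPMS replicates 1 to 3, against 78.5%, 74.1% and 73.3% in shCtrl replicates 1 to 3. Every shRBPMS library had the smaller share of RUNX1. With RB98# the share of RUNX1 was 73.6% and 74.7%, against 69.0% and 71.8% with DMSO, the other order. The summed FPKM of the alpha subunits over that of CBFB was 1.57, 1.30 and 1.39 in shRBPMS replicates 1 to 3, against 1.61, 1.13 and 1.22 in shCtrl replicates 1 to 3. These values overlapped, whereas with RB98# the ratio was 1.72 and 1.91, against 1.603 and 1.42 with DMSO, without overlap. CBFA2T3 made up 15.3%, 12.6% and 13.9% of the summed FPKM of the ETO family in shRBPMS replicates 1 to 3, against 5.46%, 7.45% and 6.76% in shCtrl replicates 1 to 3. With RB98# its share was 5.93% and 7.01%, against 12.2% and 14.4% with DMSO. The share of CBFA2T3 was thus higher in every shRBPMS library than in any shCtrl library, and lower in both RB98# libraries than in both DMSO libraries. These shares are descriptions and were not tested.

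Across the 10 libraries, with the mean of each experiment taken off, RUNX1 and RUNX1T1 followed each other closely in log2 CPM (Pearson r = 0.987). This is a description over 10 libraries that share label sets and treatments, and 9936 genes were ranked in the same way. The genes most like RUNX1 were FRYL (r = 0.992), RUNX1T1 and BMP2K (r = 0.987). Those most like RUNX1T1 were BMP2K (r = 0.996), PDE7A, a phosphodiesterase for cyclic AMP (r = 0.995), and RFC1, the large subunit of replication factor C (r = 0.993). Those most like CBFB were RNF138, a ubiquitin ligase (r = 0.981), KCTD2 (r = 0.971) and RAD23B, a protein of nucleotide excision repair (r = 0.967). The r between CBFA2T3 and RUNX1T1 was 0.0042, and that between RUNX1 and RUNX3 was -0.64.

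The corepressors listed for the RUNX and ETO families include TBL1X, TLE3 and HDAC1, which fell after the knockdown in the blocked fit, and NCOR1 and TLE4, which rose with RB98#. Of 14 listed corepressors, 13 were tested. In the knockdown none passed with group alone in edgeR, DESeq2 or limma-voom. At an unadjusted p under 0.05 each held 1 of the 13, against 2733, 2871 and 2719 of all 16215 genes. Under the block none rose and 3 fell, 3 of 13 against 28.1% of all genes. The blocked median log2 change was -0.16, against 0.02 over all genes. In the fit that sums replicates 2 and 3, which called 16.4% of all genes, the count was 2. Without replicate 1 of either group the blocked count was 8 in all. Among all genes, 7107 were called without shCtrl replicate 1 and 7116 without shRBPMS replicate 1, against 4549 with all libraries. TBL1X, a subunit of the NCOR1 complex, fell to 39.1 ± 4.38 CPM in shRBPMS, against 59.7 ± 14.98 CPM in shCtrl cells (blocked log2 change -0.59, adjusted p = 0.00483). TLE3, a Groucho-type corepressor, was at 107 ± 17.8 CPM in shRBPMS and 138 ± 10.7 CPM in shCtrl cells (blocked log2 change -0.37, adjusted p = 0.0122). HDAC1, a histone deacetylase, was at 205 ± 56.3 CPM in shRBPMS and 239 ± 56.1 CPM in shCtrl cells (blocked log2 change -0.23, adjusted p = 0.0280), a call lost without any 1 of the 4 libraries of label set 2 (adjusted p up to 0.160). With RB98# 4 rose and 2 fell, 6 of 13 against 37.8% of all genes, with a median log2 change of 0.10 against 0.00 over all genes. NCOR1 was at 164 ± 2.66 CPM with RB98# and 128 ± 6.22 CPM with DMSO (SD, n = 2 each; log2 change 0.36). TLE4 had a log2 change of 0.79 and TLE3 of 0.31. TLE3 was thus lower after the knockdown in the blocked fit and higher with RB98#.

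The E protein complex, in which the fusion meets TCF3-type factors, LYL1, TAL1, LMO2 and LDB1, had 7 of 8 listed genes tested. With group alone none passed in edgeR or limma-voom, and DESeq2 called 1, where it called 1339 genes in all. At an unadjusted p under 0.05 edgeR and limma-voom each held 1 of the 7, against 2733 and 2719 of all 16215 genes. Under the block 2 rose and 2 fell, 4 of 7 against 28.1% of all genes. The count was 2 in all without any 1 of the 4 libraries of label set 2, where 2753 to 3156 genes passed. It was also 2 with replicates 2 and 3 summed, where 16.4% of all genes passed. TAL1, a helix-loop-helix factor of blood progenitors, fell to 50.5 ± 4.10 CPM in shRBPMS, against 85.8 ± 15.9 CPM in shCtrl cells (blocked log2 change -0.75, adjusted p = 0.00721). LYL1, its close relative, was at 232 ± 38.3 CPM in shRBPMS and 177 ± 54.6 CPM in shCtrl cells (blocked log2 change 0.43, adjusted p = 0.0173), and LDB1, which bridges the complex, had -0.27, a call lost without any 1 of the 4 libraries of label set 2 (adjusted p up to 0.108). With RB98# 4 rose and 2 fell, 6 of 7 against 37.8% of all genes. TAL1 was at 31.8 ± 4.34 CPM with RB98# and 74.6 ± 1.97 CPM with DMSO (log2 change -1.23, adjusted p = 1.87e-10). LYL1 was at 101 ± 7.08 CPM with RB98# and 168 ± 0.279 CPM with DMSO (log2 change -0.73). JMJD1C, a coactivator of the fusion, was at 261 ± 0.0213 CPM with RB98# and 134 ± 0.909 CPM with DMSO (log2 change 0.95). TAL1 was thus lower in both experiments, and LYL1 was higher after the knockdown and lower with RB98#.

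Coactivators and modifying enzymes of RUNX1 had all 14 listed genes tested. With group alone none passed in edgeR or limma-voom, and DESeq2 called 1, where it called 1339 genes in all. At an unadjusted p under 0.05 edgeR and limma-voom each held 3 of the 14, against 2733 and 2719 of all 16215 genes. Under the block 1 rose and 5 fell, 6 of 14 against 28.1% of all genes, with a median log2 change of -0.15. The count was 3 without shRBPMS replicate 2, where 2753 genes passed. It was also 3 with replicates 2 and 3 summed, where 16.4% of all genes passed. HIPK2, a kinase that phosphorylates RUNX1, was at 62.0 ± 14.7 CPM in shRBPMS and 41.0 ± 11.0 CPM in shCtrl cells (blocked log2 change 0.60, adjusted p = 0.00143). CARM1, an arginine methyltransferase, had -0.56, and KAT6B, an acetyltransferase, had -0.55. With RB98# 5 rose and 1 fell, 6 of 14, near the 37.8% of all genes, with a median log2 change of 0.08. The acetyltransferase CREBBP was at 136 ± 5.52 CPM with RB98# and 73.0 ± 1.82 CPM with DMSO (log2 change 0.89). HIPK2 had 0.56 there, and PRMT6, an arginine methyltransferase, was at 20.6 ± 0.356 CPM with RB98# and 44.0 ± 1.72 CPM with DMSO (log2 change -1.09).

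**Figure D5:**
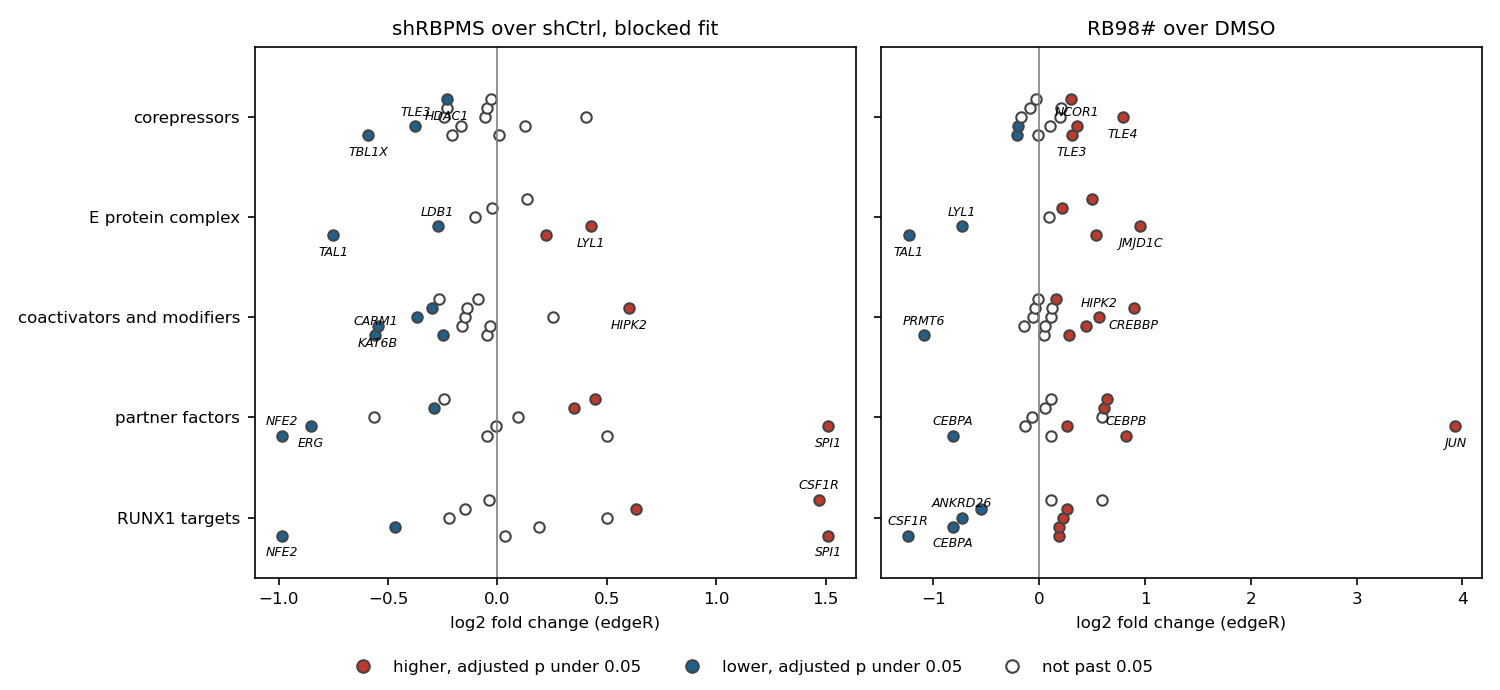
Log2 fold change (edgeR) of the tested genes of each list, left for shRBPMS over shCtrl in the blocked fit and right for RB98# over DMSO, with 1 point a gene. Filled points passed an adjusted p of 0.05, red higher and blue lower, and the named genes are those described in the text. The genes of each list lie on both sides of 0 in both experiments, from NFE2 at -0.98 to SPI1 at 1.51 after the knockdown and from CSF1R at -1.24 to JUN at 3.93 with RB98#.

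Of the partner factors that bind beside RUNX1, 12 of 15 were tested. In the knockdown 1 rose with group alone in edgeR and limma-voom, against 1.97% of all genes in edgeR. DESeq2 called 3 of the 12, where it called 1339 genes in all. With the block 3 rose and 3 fell, 6 of 12 against 28.1% of all genes. The count was 4 with replicates 2 and 3 summed, against 16.4% of all genes. SPI1, the myeloid factor PU.1, was at 117 ± 4.56 CPM in shRBPMS and 41.3 ± 8.35 CPM in shCtrl cells (SD, n = 3 each), with log2 changes of 1.498 (adjusted p = 0.0233) with group alone and 1.51 with the block. ERG, an ETS factor, was at 125 ± 12.5 CPM in shRBPMS and 232 ± 71.6 CPM in shCtrl cells (blocked log2 change -0.85, adjusted p = 0.00207), and NFE2, a factor of platelet formation, had -0.98. With RB98# 5 rose and 1 fell, 6 of 12 against 37.8% of all genes. JUN, a subunit of AP-1, was at 213 ± 4.21 CPM with RB98# and 13.98 ± 0.553 CPM with DMSO (log2 change 3.93, adjusted p = 2.14e-21). CEBPB was at 15.8 ± 2.68 CPM with RB98# and 8.99 ± 0.999 CPM with DMSO (log2 change 0.82). CEBPA, a granulocyte factor that the fusion is known to hold down, was at 13.6 ± 0.812 CPM with RB98# and 23.9 ± 0.550 CPM with DMSO (log2 change -0.81).

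Of 15 listed RUNX1 target genes, 11 were tested in the knockdown and 10 with RB98#. In the knockdown 1 rose (SPI1, also a partner factor) and none fell with group alone in edgeR and limma-voom, against 1.97% of all genes in edgeR. DESeq2 called 3 of the 11, where it called 1339 genes in all. With the block 3 rose and 2 fell, 5 of 11 against 28.1% of all genes, with a median log2 change of 0.03. The count was also 5 with replicates 2 and 3 summed, against 16.4% of all genes. Without replicate 1 of either group the blocked count was 9 in all. That step called 7107 genes without shCtrl replicate 1 and 7116 without shRBPMS replicate 1, against 4549 with all libraries. NFE2, which is on this list too, was at 1.38 ± 0.236 CPM in shRBPMS and 2.75 ± 0.611 CPM in shCtrl cells. CSF1R, the receptor of macrophage colony-stimulating factor, was at 0.979 ± 0.224 CPM in shRBPMS and 0.349 ± 0.121 CPM in shCtrl cells (blocked log2 change 1.47, adjusted p = 0.0142), a call lost without shRBPMS replicate 2 (adjusted p = 0.0519). With RB98# 4 rose and 4 fell, 8 of 10 against 37.8% of all genes. With library totals 5 of the 10 passed, where 4966 of all 12324 genes did. The count also fell without DMSO replicate 1 or DMSO replicate 2, which leaves 1 library in that group. CSF1R was at 0.606 ± 0.0120 CPM with RB98# and 1.45 ± 0.271 CPM with DMSO (log2 change -1.24, adjusted p = 0.0426), which rests on 9 and 8 counts with RB98# and 24 and 20 with DMSO and did not pass without any 1 of these libraries (adjusted p up to 0.240). ANKRD26 had a log2 change of -0.73. CSF1R was also among the 5 monocyte markers, and it was the single one of them with a row in either table. In the knockdown fit of group alone, the call of SPI1 was lost without shRBPMS replicate 1, 2 or 3 and without shCtrl replicate 2 or 3 (adjusted p up to 0.153).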

How the data were processed

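RNA-seq of 10 Kasumi-1 libraries was analysed, from 6 knockdown and 4 compound libraries; the other 4 of the 14 samples were not analysed here. Per the submitters' processing notes, the upstream tools include featureCounts 2.0.1, HISAT2 2.2.1, DESeq2 1.32.0, fastp 0.22.0 and StringTie, with no role given for any. Per the file headers, each table holds raw counts per Ensembl gene as deposited, without normalisation. The compound table also holds 1 deposited value per library that its header does not name and that was taken as the authors' FPKM from the values, which imply 1 length per gene within 1% for 99.9% of genes. The knockdown table has no such column, and its FPKM were computed here from counts, library totals and those lengths. The knockdown table also holds a signal value per library that the authors had adjusted (the method is not given in the sources used here), taken up in 1 alternative on the log2(value + 1) scale with limma. Log2 fold changes and p-values of the authors' own comparison, as deposited, are quoted where named. The compound table repeated 112 lines, which were dropped by identifier.

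Counts were tested with the quasi-likelihood F test of edgeR 4.0.16 (R 4.3.3), with TMM factors, the default expression filter (a count of 10, a total of 15), group as the single term and Benjamini-Hochberg adjustment over all genes tested at 0.05, two-sided. Dividing a log2 change by the root of its F statistic gave the SE. Fits were made per experiment, and for the difference of effects in 1 fit of all 10 libraries with 4 groups over 12126 genes. Deviations from the group means correlated at 0.852, 0.772 and 0.800 between same-numbered shRBPMS and shCtrl libraries (10606 genes), so the knockdown is also given with the replicate number as a block. Between replicates 2 and 3 across groups the correlation was 0.767 and 0.776, so that it follows the label set and not the number within it. For RB98# and DMSO it was -0.0585 (10443 genes). Ratios within a library were tested by exact permutation over libraries.

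All 7 members are named in each comparison, with up to 3 called genes of largest change per list, the 3 genes most like RUNX1, RUNX1T1 and CBFB (mean log2 CPM of at least 2), and RBPMS. The blocked fit supplied the knockdown names, under a rule that required the replicate numbers to pair the samples. That holds between the label sets but not within label set 2. Of the list genes named from the blocked fit, only SPI1 also passed in the fit of group alone. The members and the lists were chosen with earlier results of these data known. Alternatives were DESeq2 1.42.0, limma-voom (limma 3.58.1), library totals, no filter, the block, the label set as a covariate, label set 2 alone, replicates 2 and 3 summed, and each library left out. Leaving out libraries of the blocked fit and its library totals were added after seeing the data. With the block, leaving out either library of a same-numbered pair removes the comparison within that pair, so both steps are nearly the same check. The lists were described by counts and medians, with no test of a list. Of the genes first listed, 2 are not reported here and were taken out of the list counts, medians and plot; they stayed among all genes tested.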

Additional observations from a re-analysis of the deposited data

How the results depend on the processing

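In the knockdown, the fit of group alone called 320 genes, against 4549 with the replicate block, 1339 with DESeq2, 5810 with the label set as a covariate, 6830 in label set 2 alone, 2681 with replicates 2 and 3 summed, 2309 with limma on the authors' adjusted values and 0 to 322 when 1 library was left out, of which 322 without shCtrl replicate 1 and at most 37 without any of the other 5. Calls that the fit of group alone did not make were RUNX1 (-0.29), RUNX1T1 (-0.68), CBFB (-0.28) and CBFA2T3 (0.70) with the block; these and RUNX3 (0.29) with the label set as a covariate (RUNX1 -0.29, RUNX1T1 -0.68, CBFB -0.28, CBFA2T3 0.70); RUNX1 (-0.16), RUNX1T1 (-0.50), CBFB (-0.25), CBFA2T3 (0.64), RUNX2 (0.17) and RUNX3 (0.21) in label set 2 alone; RUNX1T1 (-0.76) and CBFA2T3 (0.73) with replicates summed; and RUNX1T1 (-0.61) and CBFA2T3 (0.66) with the adjusted values. With 1 library left out, CBFA2T2 ranged from -0.040 to 0.22 and RUNX2 from -0.079 to 0.32, both changing sign. In the blocked fit the same step gave 2753 to 7116 genes, the most without replicate 1 of either group and the fewest without shRBPMS replicate 2, RUNX1 -0.37 to -0.16, CBFB -0.32 to -0.26, RUNX2 -0.024 to 0.17 and RUNX3 0.20 to 0.35; with the block and library totals, RUNX1 had -0.26 and RUNX3 0.32.

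With RB98#, 4659 genes were called, and 2731 to 5028 with 1 library left out, with 2843 and 2731 without DMSO replicate 1 or 2. RUNX1 then ranged from 0.20 to 0.25, CBFA2T2 from 0.25 to 0.33, CBFB from -0.18 to -0.055, RUNX2 from -0.10 to 0.0504 and RUNX3 from -0.28 to 0.15. Library totals gave 0.13 for RUNX1, 0.20 for CBFA2T2 and -0.21 for CBFB, and DESeq2 gave 0.29 for CBFA2T2. The replicate block, whose numbers do not pair these libraries, changed no call of the 7 genes and gave 4430 genes. RUNX1T1 and CBFA2T3 passed under all 9 alternatives run. The difference of effects called 988 genes, 4497 with the block and 92 to 1541 with 1 library left out, at most 222 where that was an RB98# or DMSO library. RUNX1 (0.50), RUNX1T1 (1.03) and CBFA2T3 (-1.51) passed with the block, and CBFA2T3 also with library totals (-1.65) and without shCtrl replicate 1; it ranged from -1.80 to -1.19 and RUNX2 from -0.37 to 0.035. The causes of these moves were not tested. Where 1 library remains in a group, it is assumed to vary like the other group. Depth limits the precision of low genes such as CSF1R, NFE2 and, among the 7 genes, CBFA2T3, and no test of the 2 experiments can tell a label set, a culture and a run apart.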
